A study of Mus musculus with 10 samples.

Results

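Pa2g4 and 7 other genes whose products meet the new protein chain as it leaves the ribosome were followed through the development of the mouse neocortex. The 8 genes were taken by name from the table of transcript levels: Pa2g4, Naca, Btf3, Metap1, Metap2, Naa10, Naa15 and Naa50. All 8 were among its 6147 genes. The tissue was the neocortex of CD1 wild type mice, an outbred strain, at 5 stages. The embryonic stages were E12.5, E14, E15.5 and E17, where the number counts days of gestation. P0 was the day of birth. There were 2 libraries of polyadenylated RNA per stage, 10 in all. The animals carried no engineered allele and received no treatment according to the labels, which name neither sex, litter nor batch, and do not say whether animals were pooled.

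A growing protein leaves the large ribosomal subunit through a tunnel, and several factors wait at its mouth. Methionine aminopeptidases remove the first methionine, N-terminal acetyltransferases modify the new end of the chain, and the nascent polypeptide-associated complex binds the emerging chain and governs which other factors reach it. Pa2g4 encodes Ebp1, which shares the fold of the methionine aminopeptidases but lacks their activity, and which binds the large subunit at the tunnel exit, where these factors also dock. In the embryonic neocortex, dividing progenitors give way over these days to neurons that mature.

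Levels are given as TPM, the share of each gene in all transcripts after correction for length, on the same total in every library. At E12.5 the order of the 8 genes ran from Btf3 (691 ± 6.21 TPM, SD, n = 2) through Naa50 (525 ± 35.6), Pa2g4 (252 ± 4.90), Metap2 (142 ± 5.36), Naca (116 ± 0.797), Naa15 (73.1 ± 2.56) and Metap1 (55.2 ± 1.62) to Naa10 (31.1 ± 0.939). No neighbours in this order overlapped between libraries at E12.5 or at P0. At P0 the order was the same except that Metap1 stood above Naa15. Naca and Btf3 encode partners of one complex, yet Naca was listed at 116 TPM against 691 TPM for Btf3. In the GENCODE M21 annotation the coding transcripts of Naca are 885 and 6745 bases long, and its exons together span 6805 bases, 7.69 times the shorter transcript. The sources used here do not give the length by which the authors divided. The level of Naca against other genes may rest on that choice, which was not tested. A fixed length divides every library alike, but TPM are shares of all transcripts, so its course still depends on the other genes. Any shift between its transcripts was not tested.

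The genes lie on 5 chromosomes, at these places in GRCm38: 3 on chromosome 10, with Pa2g4 at 128557766 to 128565987 (reverse strand), Naca at 128035575 to 128048637 (forward) and Metap2 at 93858489 to 93897093 (reverse). Naca and Pa2g4 are 509 kb apart. Chromosome 3 holds Metap1 at 138458956 to 138489515 (reverse) and Naa15 at 51415148 to 51476507 (forward). Btf3 is on chromosome 13 at 98309896 to 98317006 (reverse), Naa50 on chromosome 16 at 44139830 to 44163366 (forward) and Naa10 on the X chromosome at 73916873 to 73921944 (reverse). Of the 50-base windows in the exons of Btf3, 54% also occur in other annotated genes, among them the opposite-strand RNA Gm9828 and Gm3531. For Naa10 the share was 28.2%, nearly all of it in Arhgap4, which overlaps it on the same strand. It was between 5.09% and 7.98% for Pa2g4, Naca and Metap2, and no window was shared for Metap1, Naa15 and Naa50. The values of Btf3 and Naa10 are therefore uncertain to the extent that reads were split or dropped in counting, which was not tested.

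The promoters of 4 genes are shown because their genes took different courses: Pa2g4 and Naa15 fell most, Metap1 did not fall, and Btf3 was the most abundant. All 8 genes were found in the RefSeq promoter table (build GRCm38.p6), and each window below runs from 250 bases before the start of transcription to 30 bases after it, 5′ to 3′ on the strand of the gene. Capitals mark the letters of 6 motifs searched on both strands: the E-box CACGTG, the ETS core CCGGAA, the YY1 motif AAGATGGC, the GC box GGGCGG, the CCAAT box (its 5 letters as in its name) and the TATA box TATAAA.
Pa2g4, chr10:128565905-128566184, reverse strand: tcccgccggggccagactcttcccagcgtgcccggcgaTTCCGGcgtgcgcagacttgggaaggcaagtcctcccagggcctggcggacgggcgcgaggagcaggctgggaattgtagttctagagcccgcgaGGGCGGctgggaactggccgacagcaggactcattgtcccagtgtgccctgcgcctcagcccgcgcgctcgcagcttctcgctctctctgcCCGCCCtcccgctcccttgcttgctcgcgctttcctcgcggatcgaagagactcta
Naa15, chr3:51415766-51416045, forward strand: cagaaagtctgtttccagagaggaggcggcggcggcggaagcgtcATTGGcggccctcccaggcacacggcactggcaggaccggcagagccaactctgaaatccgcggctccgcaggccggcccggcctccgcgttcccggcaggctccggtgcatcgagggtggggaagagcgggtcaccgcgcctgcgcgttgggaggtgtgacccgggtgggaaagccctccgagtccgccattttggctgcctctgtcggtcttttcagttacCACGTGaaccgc
Metap1, chr3:138489353-138489632, reverse strand: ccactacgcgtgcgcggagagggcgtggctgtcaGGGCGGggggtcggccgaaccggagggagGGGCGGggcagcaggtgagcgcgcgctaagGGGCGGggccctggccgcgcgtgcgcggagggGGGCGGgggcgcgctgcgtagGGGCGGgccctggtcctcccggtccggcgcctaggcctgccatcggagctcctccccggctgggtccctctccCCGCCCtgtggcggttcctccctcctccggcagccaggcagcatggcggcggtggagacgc
Btf3, the more downstream of its 2 listed starts, chr13:98316938-98317217, reverse strand: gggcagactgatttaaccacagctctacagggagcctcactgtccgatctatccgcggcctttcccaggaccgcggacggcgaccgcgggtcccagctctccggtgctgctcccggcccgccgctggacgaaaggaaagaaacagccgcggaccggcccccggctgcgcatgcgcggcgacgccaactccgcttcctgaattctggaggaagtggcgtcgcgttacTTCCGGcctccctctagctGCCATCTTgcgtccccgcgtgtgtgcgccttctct

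The Pa2g4 window held 1 ETS core and 2 GC boxes, and the Naa15 window 1 CCAAT and 1 E-box. The Metap1 window held 6 GC boxes and was the richest in G and C, at 78.9% against 68.2% for Pa2g4, 67.9% for Naa15 and 66.4% for Btf3. The Btf3 window held 1 ETS core and 1 YY1 motif. No letters of 1 match were shared with another in these 4 windows, and Pa2g4 and Naa15 had no motif of this set in common. Among 32851 promoters of the same length in the table, 6.79% held the E-box, 14.2% the ETS core, 2.29% the YY1 motif, 34.7% the GC box, 36.1% CCAAT and 13.1% TATAAA. A match says only that the letters are there.

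The listed genes made up 68.9% to 71.7% of all TPM per library, the rest belonging to genes that are not listed, and the read depth is unknown. Replicates differed by an SD of 0.285 on the log2 scale at E17 and of 0.088 to 0.176 at the other stages. The tissue label was checked against 11 neocortical markers, of which 8 were in the table, each at 1 TPM or more at every stage. From E12.5 to P0, 5 of these 8 were called lower and 2 higher. Their summed level was 1292 to 1309 TPM at E12.5, 1614 to 1622 at E15.5 and 1032 to 1084 at P0. The libraries of E12.5 and E14 also carried markers of neighbouring tissue and of blood. The summed level of 5 meningeal markers was 106 to 172.8 TPM at E12.5 and E14 and 2.22 to 6.63 TPM from E15.5 on. That of 2 choroid plexus markers of 4 was 303 to 1517 TPM and then 3.07 to 5.26 TPM. That of 3 erythroid markers of 9 was 1880 to 4494 TPM and then 2.04 to 9.84 TPM. These 3 were Hbb-y, Hbb-bh1 and Slc4a1. The globins Hba-a1, Hba-a2, Hbb-bs and Hbb-bt were not in the table, so the low values do not show that red cells were absent. Proliferation markers (11 of 12 in the table) fell from 1469 to 1536 TPM at E12.5 to 170.2 to 172.4 TPM at P0, all 11 called lower, and neuronal markers (7 of 8) rose from 935 to 944 TPM to 6812 to 7044 TPM, all 7 called higher. Astrocyte markers (3 of 4) went from 55.2 to 58.4 TPM at E12.5 to 104 to 108 TPM at P0, all 3 called higher. Only 1 of these 3 stood at 1 TPM or more at E12.5 and E14, and their median change was 3.55. The 1 vascular marker of 5 in the table went from 13.9 to 15.3 TPM at E12.5 and 9.26 to 9.78 TPM at E14 to 1.02 to 3.30 TPM from E15.5 on, and was called lower at P0. Markers of microglia and of the oligodendrocyte lineage (0 of 4 in the table for each) were not analysed here. These groups move along the same stages as the 8 genes, and their part in the results was not tested.

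From E12.5 to P0, 7 of the 8 genes fell and Metap1 did not. Changes are differences of log2(TPM + 1) with standard errors (SE) from limma, and a gene was called at a Benjamini-Hochberg adjusted p under 0.05 over all 6048 genes tested. Of those genes 51% were called lower at P0 and 27.1% higher, and the median gene changed by -0.28. The median of the 8 genes was -0.56. In bulk tissue, fewer cells of a type and less RNA per cell cannot be told apart. Under median-of-ratios scaling, which moves the median of all genes by 0.27, to -0.01, only Pa2g4, Naa15 and Naa50 were still called lower, 3 of 8 against 37.7% of all genes, and Metap1 was called higher (37.9%). For 7 of the 8 the higher P0 library was below the lower E12.5 library, as for 58.4% of all genes; for Metap1 both were above, as for 32.5%. In the F test over the 5 stages all 8 were called, against 82.9% of all genes. Metap1 (adjusted p 0.0393 in limma) lost this call without any one library of E12.5, E14, E15.5 or P0. It also lost it with a replicate block (adjusted p 0.0628). Btf3, Metap2 and Naa10 lost theirs under median-of-ratios scaling, and Naa10 also under quantile normalization (adjusted p 0.143). Measured from E15.5, where the meningeal, choroid plexus and erythroid markers were already low, 3 of the 8 were called lower at P0 (Pa2g4, Naca and Naa15, against 30.7% of all genes) and Metap1 was called higher (19.5%).

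**Figure D1:**
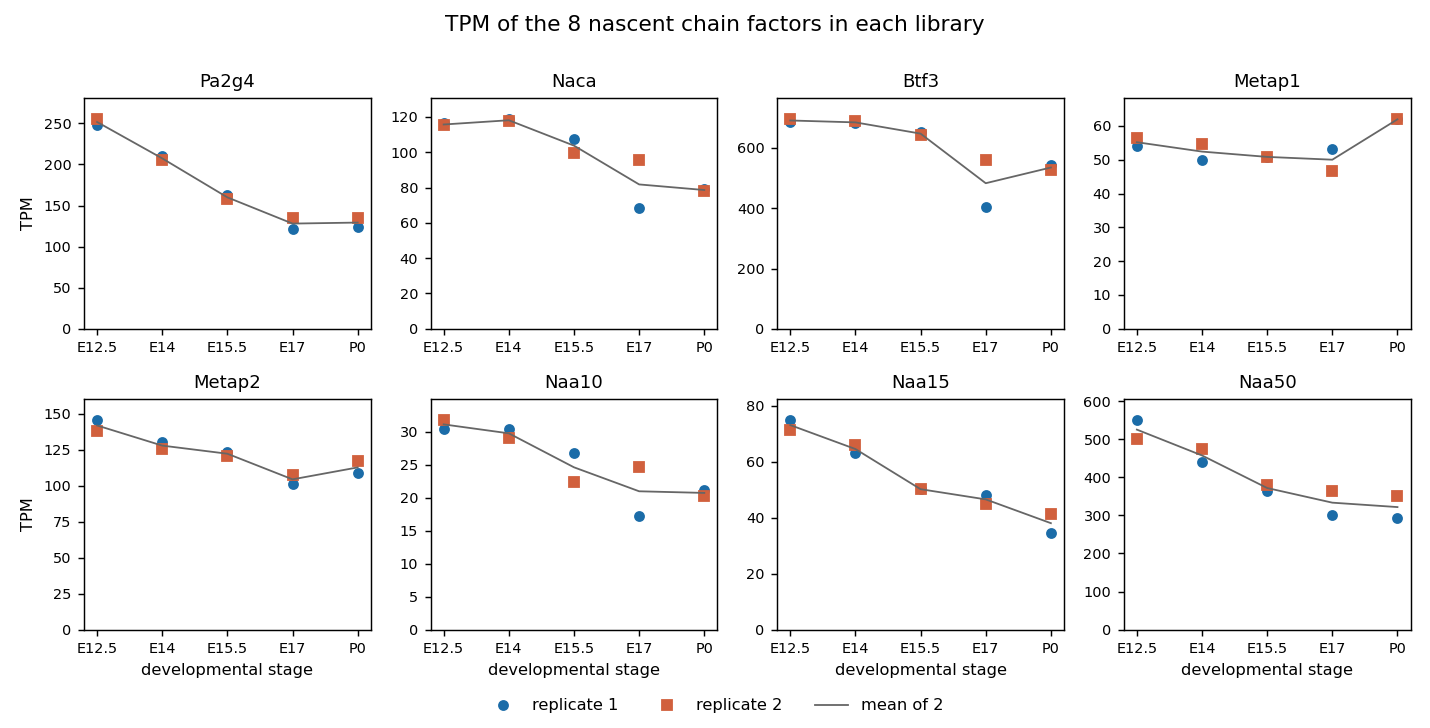
TPM (vertical axes, each starting at 0) of the 8 genes at each stage (horizontal axes); circles are replicate 1, squares replicate 2, and the line joins the means of 2. Pa2g4 goes from 248 and 255 TPM at E12.5 to 124 and 135 at P0, Metap1 ends at 62.0 and 61.9, and the E17 replicates of Naca and Btf3 lie far apart.

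Pa2g4, which encodes Ebp1, stood at 248 and 255 TPM in the libraries of E12.5, 209.7 and 205 at E14, 162 and 157 at E15.5, 121 and 135 at E17, and 124 and 135 at P0. Each stage up to E17 lay wholly below the one before it, and E17 and P0 overlapped. P0 held 51.4% of the E12.5 level, a change of -0.96 (SE 0.08, adjusted p 3.78e-07 in limma). Relative to the median of all genes the change was -0.68, and 21.1% of genes had a lower value. Of its 3 called steps, only that from E14 to E15.5 (-0.37, adjusted p 0.00195) kept its call under all 19 alternatives. The steps from E12.5 to E14 and from E15.5 to E17 lost theirs without either E15.5 library, among others.

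Naca and Btf3 encode the alpha and the beta subunit of the nascent polypeptide-associated complex. Naca was at 116 and 115 TPM at E12.5, 119 and 118 at E14, 108 and 99.8 at E15.5, 68.1 and 95.4 at E17, and 79.0 and 78.2 at P0. The libraries of E12.5 and E14 lay within 115 to 119 TPM, and E17 replicate 1 was the lowest. The change from E12.5 to P0 was -0.55 (SE 0.12, adjusted p 0.00154 in limma), which became -0.28 (adjusted p 0.104) under median-of-ratios scaling.

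Btf3, the most abundant of the 8 at every stage, was at 687 and 696 TPM at E12.5, 682 and 688 at E14, 652 and 643 at E15.5, 406 and 560.5 at E17, and 545 and 525 at P0. The first 3 stages lay within 643 to 696 TPM, above every later library. Btf3 fell by 0.37 from E12.5 to P0 (SE 0.12, adjusted p 0.0151 in limma), and this call was lost without any one of the E12.5 and P0 libraries (adjusted p 0.0516 to 0.0817). Under median-of-ratios scaling the value was -0.09 (adjusted p 0.594). The step from E15.5 to E17 was called (-0.44, adjusted p 0.0228), but it ranged from -0.67 to -0.21 when single libraries were left out, and lost its call without either E15.5 library.

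E17 replicate 1 stood apart most for 3 of the genes. On the log2 scale it was lower than replicate 2 by a difference of -0.48 for Naca, -0.47 for Btf3 and -0.50 for Naa10, where the median of all genes was 0.16. The median of 68 cytosolic ribosomal protein genes was -0.43, and their share of all TPM was 6.04% in replicate 1 and 8.32% in replicate 2. For the other 5 factors the difference lay between -0.27 (Naa50) and 0.18 (Metap1). Naa50 was also low in replicate 1: 5.85% of genes had a lower difference, against 1.06% to 1.34% for those 3. For Pa2g4 (-0.15) the share was 12.8%. The values of Naca, Btf3 and Naa10 at E17, and to a lesser degree that of Naa50, thus rest on libraries that disagree. What set the libraries apart was not tested.

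The aminopeptidases took different courses. Metap1 and Metap2 encode enzymes that both cut the first methionine from new chains. Metap1 was at 54.0 and 56.3 TPM at E12.5, 50.03 and 54.8 at E14, 50.9 and 50.8 at E15.5, 53.2 and 46.8 at E17, and 62.0 and 61.9 at P0. It stayed between 46.8 and 56.3 TPM before birth, and both P0 libraries were above that range. P0 minus E12.5 was 0.16 (SE 0.09, adjusted p 0.107 in limma, 95% interval from -0.03 to 0.36). It was called higher under median-of-ratios scaling (0.44, adjusted p 0.000207), under quantile normalization (0.34, adjusted p 0.00159) and, at 0.16 again, without either E17 library (adjusted p 0.0381 without replicate 1). From E17 to P0 Metap1 rose by 0.31 (SE 0.09, adjusted p 0.0172), against 12.9% of all genes called higher at that step, and the call was lost without either P0 library.

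Metap2 was at 146 and 138 TPM at E12.5, 130.4 and 126 at E14, 124 and 121 at E15.5, 101 and 108 at E17, and 109 and 117 at P0. Each stage up to E17 lay below the one before, and P0 lay above E17. Metap2 fell by 0.33 between E12.5 and P0 (SE 0.07, adjusted p 0.00165 in limma), close to the median of all genes, and under median-of-ratios scaling the value was -0.06 (adjusted p 0.579).

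Naa10 and Naa15 encode the catalytic and the ribosome-anchoring subunit of the acetyltransferase NatA, and Naa50 a further acetyltransferase that binds Naa15. Naa15 was at 74.9 and 71.3 TPM at E12.5, 63.1 and 66.0 at E14, 50.2 and 50.1 at E15.5, 48.1 and 45.0 at E17, and 34.7 and 41.4 at P0. Every stage lay wholly below the one before it. P0 held 52.0% of the E12.5 level, a change of -0.93 (SE 0.09, adjusted p 2.72e-06 in limma), or -0.66 relative to the median of all genes. Its called steps were those from E14 to E15.5 (-0.36, adjusted p 0.00838) and from E17 to P0 (-0.29, adjusted p 0.0306). The first was lost without E14 replicate 2 or either E15.5 library, with adjusted p of at most 0.0689, and the second without 8 of the 10 libraries. The second was -0.17 without P0 replicate 1, -0.18 under median-of-ratios scaling and -0.16 under quantile normalization, not called in any of these.

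Naa50 was at 550.15 and 499.7 TPM at E12.5, 441 and 473 at E14, 364 and 379 at E15.5, 302 and 364 at E17, and 294 and 349.6 at P0. The first 3 stages did not overlap and the last 3 partly did. Its fall between E12.5 and P0 was -0.71 (SE 0.11, adjusted p 9.25e-05 in limma), and -0.43, still called, under median-of-ratios scaling. Naa10, the least abundant, was at 30.4 and 31.8 TPM at E12.5, 30.4 and 29.1 at E14, 26.8 and 22.3 at E15.5, 17.2 and 24.7 at E17, and 21.2 and 20.2 at P0. It fell by 0.56 (SE 0.15, adjusted p 0.00421), and lost its call under median-of-ratios scaling (-0.30, adjusted p 0.111) and quantile normalization (-0.26, adjusted p 0.198).

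**Figure D2:**
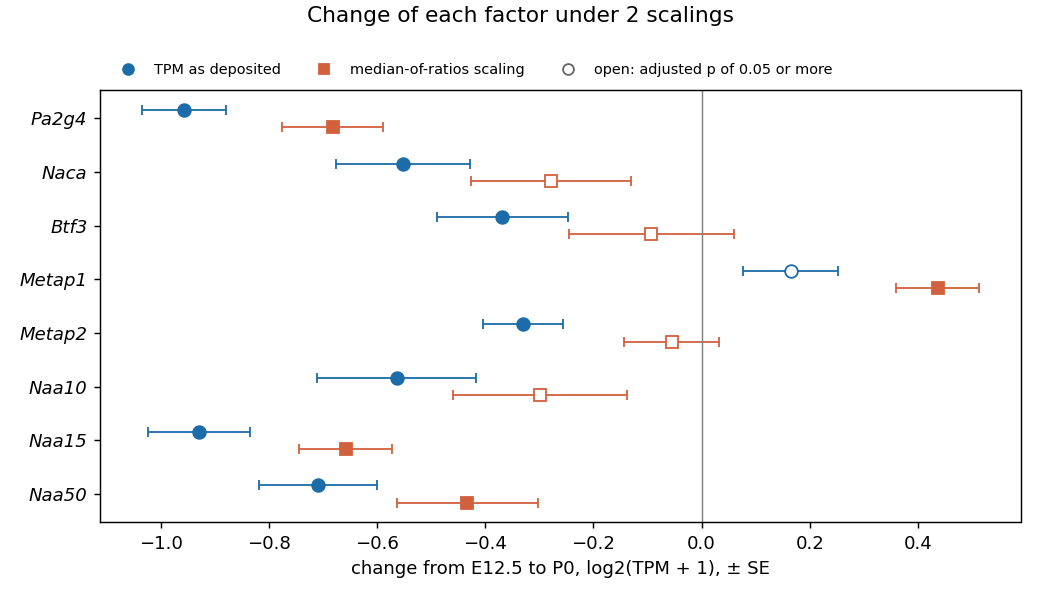
Change from E12.5 to P0 of each of the 8 genes (horizontal axis, log2(TPM + 1), bars ± SE from limma) on TPM as deposited (circles) and under median-of-ratios scaling (squares); open symbols have an adjusted p of 0.05 or more. Pa2g4, Naa15 and Naa50 stay filled under both scalings, and Metap1 is the only gene to the right of 0.

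Steps between neighbouring stages were called for 9 of 32 combinations of gene and step. From E12.5 to E14 this was Pa2g4 alone, 1 of 8 lower against 4.78% of all genes, a call lost under 12 of 19 alternatives. From E14 to E15.5 it was Pa2g4, Naa15 and Naa50, 3 of 8 lower against 33.3%. From E15.5 to E17 it was Pa2g4, Btf3 and Metap2, 3 of 8 lower against 10.6%, and from E17 to P0 Naa15 lower (1 of 8 against 28.8%) and Metap1 higher. The calls of Naa50 (-0.30, adjusted p 0.0398 in limma) and Metap2 (-0.23, adjusted p 0.0467) were lost without any one of the E12.5, E14 and E15.5 libraries. Both were also lost under median-of-ratios scaling, where the step of Naa50 was -0.18 (adjusted p 0.284), and that of Metap2 with array weights. Of the 23 steps not called, 11 were called under some alternative, so the missing calls do not show that those levels held.

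The level of Pa2g4 was then divided by that of each other factor in the same library. Such a ratio does not depend on the total to which TPM are scaled, but the 7 ratios share the errors of Pa2g4. From E12.5 to P0, Pa2g4 fell relative to 6 of the 7 factors, and its ratio to Naa15 was not called. Among 6047 genes, 68% rose relative to Pa2g4 and 13.5% fell, so a falling ratio was the common case. Changes of ratios are on the log2 scale, with p adjusted over these 6047 genes.

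**Figure D3:**
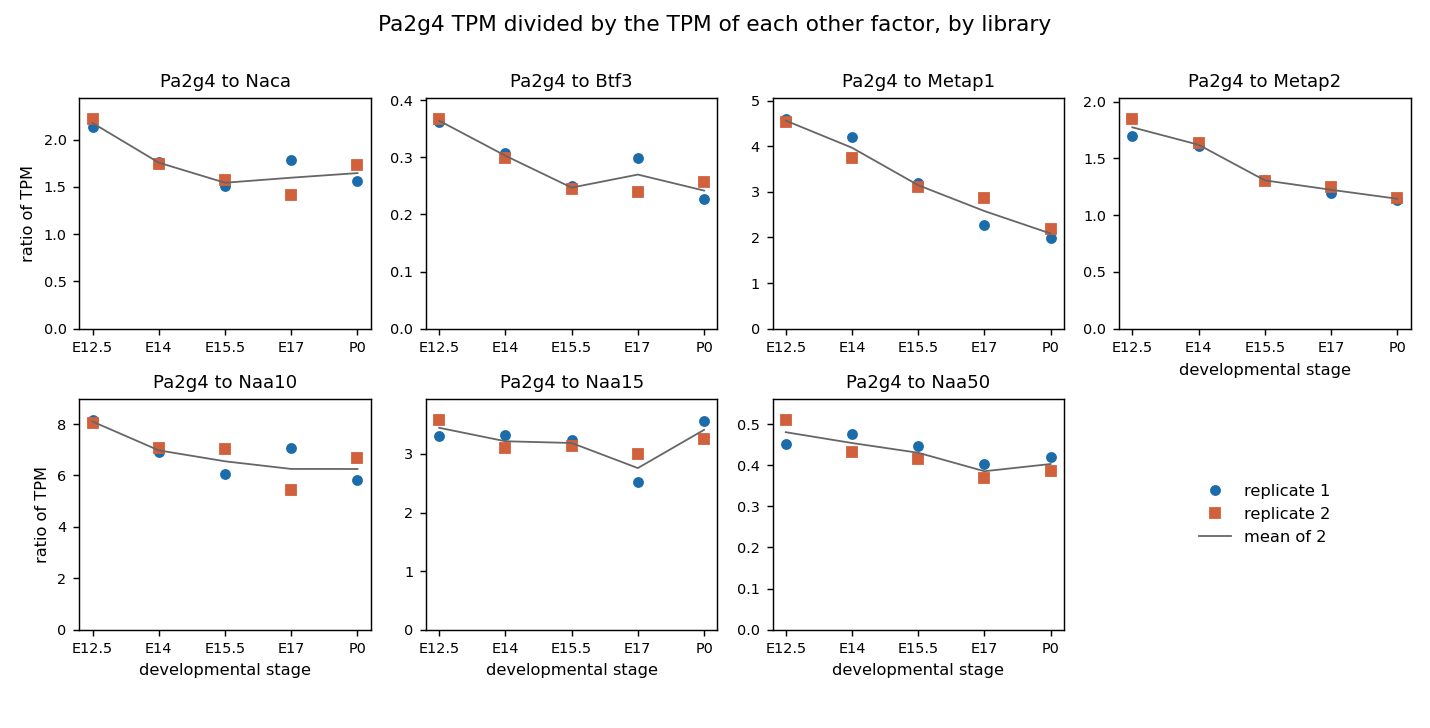
Pa2g4 TPM divided by the TPM of each of the 7 other factors (vertical axes, each starting at 0) at each stage; circles are replicate 1, squares replicate 2, and the line joins the means of 2. The ratio to Metap1 goes from 4.56 to 2.09 and that to Metap2 from 1.77 to 1.145, while that to Naa15 is 3.45 at E12.5 and 3.41 at P0.

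Against Metap1 the ratio was 4.59 and 4.53 at E12.5, 4.19 and 3.74 at E14, 3.19 and 3.10 at E15.5, 2.28 and 2.88 at E17, and 1.99 and 2.18 at P0. No 2 stages overlapped, and the order followed age. The change was -1.12 (SE 0.12, adjusted p 3.45e-06 in limma). Against Metap2 the ratio was 1.70 and 1.85 at E12.5, 1.61 and 1.63 at E14, 1.314 and 1.3 at E15.5, 1.199 and 1.249 at E17, and 1.14 and 1.153 at P0, again without overlap between stages, a change of -0.63 (SE 0.09, adjusted p 2.6e-05). For both ratios an exact permutation test, which set the F statistic against that of each of the 945 possible pairings of the 10 libraries, gave p = 0.00106, the smallest it can give. These p are not adjusted over the 11 ratios tested. Neither the exact test nor the overlap of stages was examined for the ratios of other genes to Pa2g4. How common such results are is therefore unknown, and in limma 68% of genes rose relative to Pa2g4 from E12.5 to P0.

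Against the subunits of the nascent polypeptide-associated complex, the ratio to Btf3 was 0.361 and 0.367 at E12.5, 0.308 and 0.298 at E14, 0.249 and 0.245 at E15.5, 0.299 and 0.240 at E17, and 0.227 and 0.257 at P0. It fell through E15.5 without overlap, and the later libraries spread around the E15.5 level. The change was -0.59 (SE 0.11, adjusted p 0.000313 in limma; exact permutation p = 0.0339). The ratio to Naca went from 2.13 and 2.21 at E12.5 to 1.77 and 1.74 at E14 and 1.51 and 1.58 at E15.5, and stood at 1.78 and 1.41 at E17 and 1.56 and 1.73 at P0. Its change was -0.41 (SE 0.11, adjusted p 0.00572), with an exact permutation p over the 5 stages of 0.0688.

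Against the acetyltransferases, the ratio to Naa15 was 3.31 and 3.58 at E12.5, 3.33 and 3.11 at E14, 3.23 and 3.14 at E15.5, 2.53 and 2.99 at E17, and 3.56 and 3.26 at P0. Only E17 lay apart, below every other library. P0 minus E12.5 was -0.03 (SE 0.11, adjusted p 0.826 in limma), with a 95% interval from -0.28 to 0.22. It turned to 0.03 without E12.5 replicate 2 or without P0 replicate 2. The exact permutation p over the 5 stages was 0.0381 for this ratio, 0.0942 for that to Naa50 and 0.169 for that to Naa10. The ratio to Naa50 went from 0.451 and 0.511 to 0.421 and 0.386 (-0.25, SE 0.10, adjusted p 0.0356), a call that was lost without E12.5 replicate 2, P0 replicate 2 or any one of the E14 and E15.5 libraries (adjusted p up to 0.266). The ratio to Naa10 went from 8.16 and 8.03 to 5.83 and 6.67 (-0.39, SE 0.14, adjusted p 0.0233), lost without either E12.5 library or P0 replicate 1 (adjusted p up to 0.1503).

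Between neighbouring stages, 3 of the 44 steps of the 11 ratios were called, all of them from E14 to E15.5: Pa2g4 to Metap2 (-0.31, adjusted p 0.0106 in limma), to Metap1 (-0.33, adjusted p 0.0406) and to Btf3 (-0.29, adjusted p 0.0415). At this step 41.7% of genes rose relative to Pa2g4. All 3 calls were lost without any one E14 or E15.5 library. From E15.5 to P0 the only Pa2g4 ratio called was that to Metap1 (-0.59, adjusted p 0.00217), 1 of 7 against 38.6% of genes that rose relative to Pa2g4.

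Partners within a complex were compared in the same way. The ratio of Metap1 to Metap2, which are alternative enzymes rather than partners, rose from 0.371 and 0.408 at E12.5 to 0.571 and 0.529 at P0 (0.49, SE 0.12, adjusted p 0.00222 in limma), where 38.2% of genes rose relative to Metap2. Naca to Btf3 was 0.169 and 0.166 at E12.5, 0.174 and 0.171 at E14, 0.165 and 0.155 at E15.5, 0.168 and 0.170 at E17, and 0.145 and 0.149 at P0. Both P0 libraries were lower than all others, and the E17 replicates agree within 0.01 although each gene alone differed there. In limma the difference was not called (-0.18, SE 0.18, adjusted p 0.409, against 54.1% of genes called in either direction against Btf3), while without either E17 library it was called at the same value (adjusted p 0.0171 without replicate 1). The limma SE borrows from the ratios of all other genes to Btf3. Each of these takes in the E17 difference of Btf3, so the SE does not measure the spread of this ratio alone. The exact permutation test, which uses only this ratio, gave p = 0.00317 over the 5 stages, unadjusted. Naa50 to Naa15 was 0.22 higher at P0 (SE 0.12, adjusted p 0.116) and Naa10 to Naa15 0.37 higher (SE 0.17, adjusted p 0.0674). Neither was called, against 82.9% of genes called in either direction against Naa15, and both were called without either E17 library.

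Over the 10 libraries, the course of Pa2g4 was compared with those of other genes. Likeness was measured as the SD of the log2 difference from Pa2g4 across libraries among the 5429 genes that averaged 10 TPM or more. The 5 closest were Utp18 (0.0524) and Utp6 (0.0645), which encode parts of the machinery that builds the small ribosomal subunit, Hnrnpll (0.0556), an RNA-binding protein, Prim2 (0.0664), a subunit of primase, and Hspd1 (0.0679), the mitochondrial chaperonin. Utp18 went from 40.1 TPM at E12.5 to 21.8 at P0, and Hspd1 from 237 to 114 TPM. These 5 were picked as the lowest of all ranked genes. That they lay closer to Pa2g4 than the 7 factors was nearly fixed in advance and says little about the factors. Of the 7 factors Naa50 was closest (0.138, rank 184 of 5429), then Naa15 (0.143, rank 211) and Naa10 (0.19, rank 550). Naca (0.207, rank 710), Btf3 (0.245, rank 1086) and Metap2 (0.255, rank 1200) followed, with Metap1 last (0.438, rank 3053). Among the 28 pairs of the 8 genes the tightest were Naca with Naa10 (SD 0.0786) and Naca with Btf3 (SD 0.0893), genes that shared the low E17 replicate 1. Pearson's r of Metap1 with the other 7, over libraries that share stages, was between -0.39 and -0.01.

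Other genes that act at the tunnel exit or on new chains were read from 7 lists of 60 gene names, of which 43 were tested. Srpr was also listed under its other name Srpra, which was not in the table. From E12.5 to P0, 22 of the 43 were called lower and 3 higher, with a median of -0.25, against 51% and 27.1% of all genes and a median of -0.28. Under median-of-ratios scaling 14 were called lower and 9 higher, against 37.7% and 37.9% of all genes. Pa2g4 fell relative to 37 of the 43 and rose relative to 1, where 68% of all genes rose relative to Pa2g4 and 13.5% fell. Beyond the highest and lowest gene of each list, and all tested genes of lists of at most 4, genes were chosen for naming after their values were seen.

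Of 7 other N-terminal acetylation genes, 3 fell: Naa40, which acetylates histones (-1.26, from 177 to 73.2 TPM, adjusted p 3.24e-06 in limma), Naa35 of NatC (-0.53) and Naa20 of NatB (-0.25). The value of Naa20 turned to 0.02 under median-of-ratios scaling, and the other 4, up to Hypk (0.14, adjusted p 0.445), were not called. Hypk, which went from 3.91 to 4.50 TPM, was called higher under quantile normalization (0.75, adjusted p 0.00063). Of 4 relatives of the nascent polypeptide-associated complex and myristoylation enzymes, Nacad rose (0.92, adjusted p 5.97e-05), as did the N-myristoyltransferase Nmt2 (0.49, adjusted p 6.9e-05). Nmt1 fell (-0.27, adjusted p 0.0192) and was at 0.00 under median-of-ratios scaling, and Btf3l4 was at -0.03 (adjusted p 0.711), turning to 0.24 and called there.

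Of 6 genes of the signal recognition particle and its receptor, which carry secretory chains to the endoplasmic reticulum, 2 fell. Srpr, the alpha subunit of the receptor, went from 38.4 to 10.9 TPM (-1.73, adjusted p 1.56e-07 in limma), the only gene of the lists relative to which Pa2g4 rose (0.77, adjusted p 0.00111). Srp68 fell by 0.65 (adjusted p 9.77e-05), and Srp72 had the highest value (0.16, adjusted p 0.116). Under median-of-ratios scaling Srp72 (0.43), Srp14 (0.41) and Srp19 (0.35) were called higher, and Srp72 also under quantile normalization (0.31, adjusted p 0.0129). Of 7 translocon genes 4 fell, Sec63 (-1.23), the channel subunit Sec61a1 (-1.12), Ssr3 (-0.93) and Ssr1 (-0.64), and Ssr4 was at 0.00 (adjusted p 0.986), turning to 0.27 and called higher under median-of-ratios scaling (adjusted p 0.0404). The 6 falls of these lists were also called under median-of-ratios scaling.

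Of 5 genes listed as ribosome-associated chaperones 4 fell, with adjusted p of at most 0.0117 in limma. They were Hspa14 (from 39.5 to 19.2 TPM) and its partner Dnajc2 (-0.39), Hspa4 (-0.72) and Hspa8 (-0.71). Hspa4 and Dnajb1 encode general cytosolic chaperones, so the list is broader than its name. Dnajc2 lost its call under median-of-ratios scaling (adjusted p 0.42), and Dnajb1 was not called (-0.14, adjusted p 0.159). Of 7 ribosome quality control genes, which deal with stalled chains, 6 fell, with Vcp lowest (-0.71, adjusted p 4.49e-05), and Tcf25 rose (0.69, adjusted p 6.44e-06). Of the 6, 3 were called lower under median-of-ratios scaling. Under quantile normalization Vcp alone was, the median of the list went from -0.48 to -0.07, Hbs1l turned to 0.01, and Ankzf1 turned to 0.32 and was called higher (adjusted p 0.00526). Of 7 ribosomal proteins at the exit 2 fell, Rpl39 (-0.52, adjusted p 0.00978) and Rpl19 (-0.47, adjusted p 0.00129), and neither was called under median-of-ratios scaling, while both were under quantile normalization. Rpl22 had the highest value (0.03, adjusted p 0.764) and was called higher under median-of-ratios scaling (0.31, adjusted p 0.0404). Rpl17 (-0.21, adjusted p 0.137) was called lower under quantile normalization (-0.23, adjusted p 0.0204). Pa2g4 fell relative to all 7 of these proteins, with changes from -0.43 (Rpl39) to -0.99 (Rpl22), as it did relative to 68% of all genes.

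**Figure D4:**
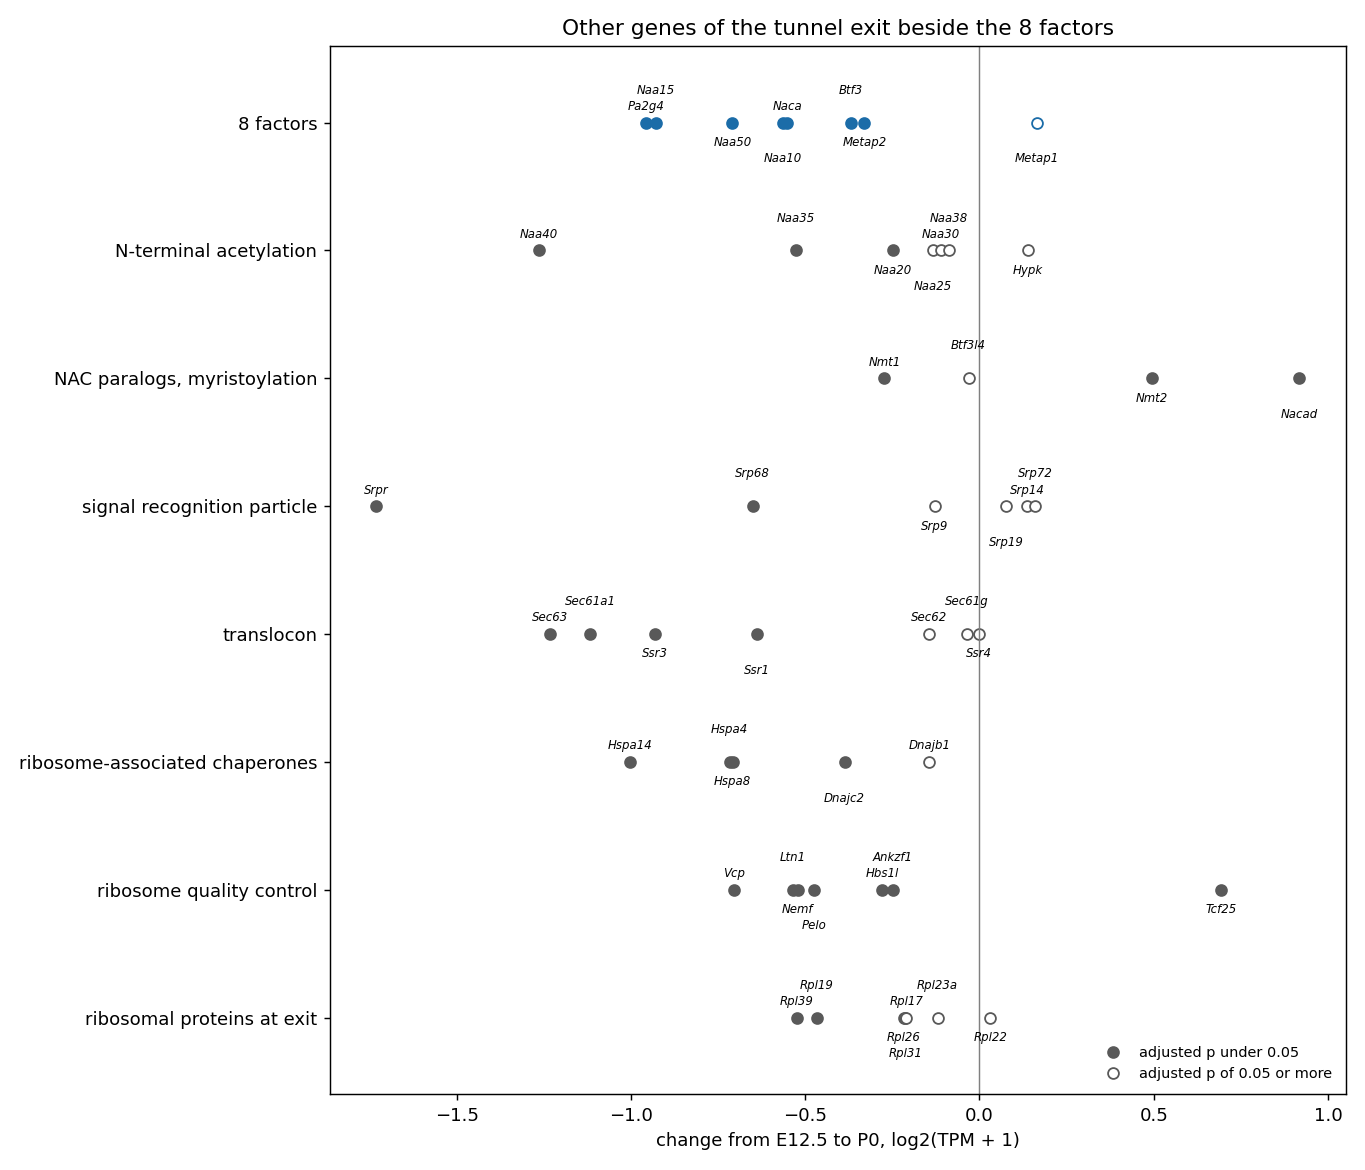
Change from E12.5 to P0 in log2(TPM + 1) (horizontal axis) of the 8 genes (blue) and of the 43 tested genes of the 7 lists (grey); filled points have an adjusted p under 0.05 in limma, open ones do not, and near-equal open points overlap. Srpr lies lowest at -1.73 and Nacad highest at 0.92, and the ribosomal proteins at the exit lie between -0.52 and 0.03.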

How the data were processed

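Neocortex RNA from 10 libraries was measured at 5 stages. Per the labels' protocols, frozen tissue was ground and lysed, cleared by centrifugation and extracted, and stranded libraries were made from polyadenylated RNA. The authors deposited TPM, 1 column per library. The submitters' processing notes name STAR, Subread and GRCm38.p5; their settings, the gene lengths and the rule that chose the 6147 rows do not appear in the sources used here. TPM keep no read depth, and 0 columns of values lacked a sample.

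Values were analysed as log2(TPM + 1), which understates changes of low genes. Genes with a mean under 1 TPM were left out (99; 6048 tested, all 8 factors among them). limma 3.58.1 in R 4.3.3 fitted 1 mean per stage over all 10 libraries with a variance trend, and p were adjusted by the Benjamini-Hochberg method over all genes. For ratios, a reference gene (Pa2g4, Btf3, Naa15 or Metap2) was subtracted within each library and all other genes were fitted. The SE of a ratio thus borrows from the ratios of other genes to the same reference. Nothing in the labels says that replicates are separate animals, so p-values measure only the spread between these libraries.

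The members and gene lists were chosen with earlier results of these data known. Named genes were the 8 factors, the highest and lowest change of each list, all tested genes of lists of at most 4, and the 5 genes most like Pa2g4; others are marked as named after their values were seen. On simulated data for E12.5 against P0 (6048 genes), 192 of 200 genes changed by -1 and 99 of 200 changed by -0.5 were recovered, with 17 and 7 false calls, in both runs a larger share of the calls than the threshold of 0.05. Annotation was GENCODE M21, and figures used Python 3.11.15 and matplotlib 3.10.9. Alternatives were other pseudocounts, filters and scalings, other variance models, a replicate block and leaving out each library; starting from E15.5 was added after seeing the data.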

Additional observations from a re-analysis of the deposited data

How the results depend on the processing

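With 2 libraries per stage, the tests rest on a spread shared over the stages, and TPM leave the depth unknown. Each E12.5 to P0 fall of Pa2g4, Naa15 and Naa50, and the changes of the ratios of Pa2g4 to Naca, Btf3, Metap1 and Metap2, kept direction and call under every alternative run on E12.5 to P0. The number of factors called lower, 7, was 3 under median-of-ratios scaling and 3 when counted from E15.5, and the number of Pa2g4 ratios called, 6, was 1 from E15.5; without single libraries these counts ran from 6 to 7 and from 4 to 6. Under median-of-ratios scaling Naca was at -0.28, Btf3 at -0.093, Metap2 at -0.055 and Naa10 at -0.30, no longer called, and Metap1 at 0.44, called. Under quantile normalization Naa10 was at -0.26, not called, and Metap1 at 0.34, called. With a pseudocount of 10 TPM the ratio of Pa2g4 to Naa50 was -0.22, not called, and that of Naa10 to Naa15 0.37, called; without the variance trend the former was -0.25, not called. The cause was not tested.

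Leaving out single libraries gave ranges of -0.40 to -0.34 for Btf3 and 0.14 to 0.19 for Metap1. For the ratios of Pa2g4 they were -0.49 to -0.30 to Naa10, -0.34 to -0.16 to Naa50, and -0.088 to 0.0325 to Naa15, where the sign turned without E12.5 replicate 2 or P0 replicate 2 (0.0273 and 0.0325). They were -0.20 to -0.17 for Naca to Btf3, 0.21 to 0.52 for Naa10 to Naa15 and 0.19 to 0.25 for Naa50 to Naa15. Genes called over the whole table ran from 65 to 1769 between E12.5 and E14, 466 to 3164 between E15.5 and E17, and 1641 to 3767 between E17 and P0. With array weights these counts were 2411, 758 and 1145, and under quantile normalization the first was 901.

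With a replicate block, 7 factors and 6 ratios were called, as without it, and 4676 genes between E12.5 and P0. The block ended the calls of Pa2g4 from E12.5 to E14 (adjusted p 0.0624) and of Metap2 from E15.5 to E17 (adjusted p 0.0677). Deviations of libraries with the same number correlated between -0.38 and 0.11 over pairs of stages, so the numbers were not taken to pair them.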
